A study of Drosophila melanogaster with 6 samples.

Results

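Phagocytosis receptors and surface or secreted proteins of fly blood cells (hemocytes) were followed in adult Drosophila melanogaster. The genes were chosen by name, with earlier results of these data known. They were the Nimrod receptors NimC1, NimC2, NimC3 and NimC4, the related receptors eater and drpr, the scavenger receptors Sr-CI and crq, and the hemocyte genes Hml and He. All 10 were found among the 17558 genes of the deposited table. Of these, 6 had a mean of at least 1 FPKM (fragments per kilobase of transcript, scaled to the sequencing depth) over the 6 libraries and were tested together with 12251 genes in all. NimC2, NimC3, NimC4 and He lay under that level and are described by their reads.

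Hemocytes circulate or sit attached to tissues and take up bacteria and dying cells. NimC1 and eater encode transmembrane proteins with extracellular NIM repeats, a form of EGF repeat, and bind bacteria on plasmatocytes, the phagocytic hemocytes. drpr encodes Draper, the fly relative of the worm engulfment receptor CED-1, which acts in glia and other tissues as well as in hemocytes. NimC4, also known as simu, binds dying cells and works upstream of drpr. Sr-CI is a class C scavenger receptor that binds bacteria, and crq (croquemort) is a relative of the mammalian CD36 receptor known for the clearance of dying cells. Hml encodes hemolectin, a large secreted clotting protein, and He encodes Hemese, a glycosylated surface protein of larval hemocytes.

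The study compared 3 libraries of control males (Gal80ts; Tub-Gal4/P{CaryP}attP40) with 3 libraries of males overexpressing the long non-coding RNA CR46018 (Gal80ts; Tub> CR46018). All flies had received Micrococcus luteus, a Gram-positive bacterium, by injection 12 h earlier, and no uninfected flies stand beside them. Both groups carry the temperature-sensitive repressor Gal80ts and a tubulin driver, expressed broadly across tissues and not specific to hemocytes. The control chromosome is an empty attP40 landing site, and other differences in genetic background cannot be told apart from overexpression. Nothing in the labels ties a replicate to its own set of flies, and the p-values cover only the scatter among these 6 libraries, which may be technical.

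Reads recovered from the FPKM values ran from 15084193 to 17396893 per library. The targeted RNA, CR46018 (3R, 553 bp), had 0 reads in every control library and 3, 1 and 0 reads in overexpression replicates 1 to 3. The exact two-sided permutation test gave p = 0.4, where 3 against 3 libraries allow no p below 0.1. The level of the target therefore does not check the labels. The labels name flies and no dissected tissue, and male markers were present: the testis and accessory gland list summed to 2388 to 2644 FPKM in all 6 libraries. Of the hemocyte markers, Hml, NimC1 and eater were counted in every library, while He was close to 0.

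NimC1 and Sr-CI fell in the flies overexpressing CR46018, to about 47.0% and 56.9% of their control means, and no tested member was called higher. eater and Hml averaged 75.5% and 79.5% of the control level and did not pass the test. crq and drpr averaged 93.9% and 107% of it, and did not pass either. Thus 2 of 6 tested members were lower and 0 higher (limma, adjusted p under 0.05 over all 12251 genes), beside 6.31% of all tested genes called lower and 2.45% called higher (8.76% in either direction). Rescaling FPKM to a common total per library turned the split over all tested genes from 300 higher and 773 lower to 826 higher and 484 lower, and left 1 member lower and 0 higher. At an unadjusted limma p under 0.05, 3 of the 6 members stood out, beside 23.5% of all tested genes. The groups did not overlap in 3 of the 6, beside 28.4% of all tested genes. Of these 3, 2 were lower, where 16.2% of all tested genes were lower without overlap, and drpr was slightly higher. In bulk RNA of flies, fewer hemocytes and less RNA per hemocyte cannot be told apart.

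**Figure D1:**
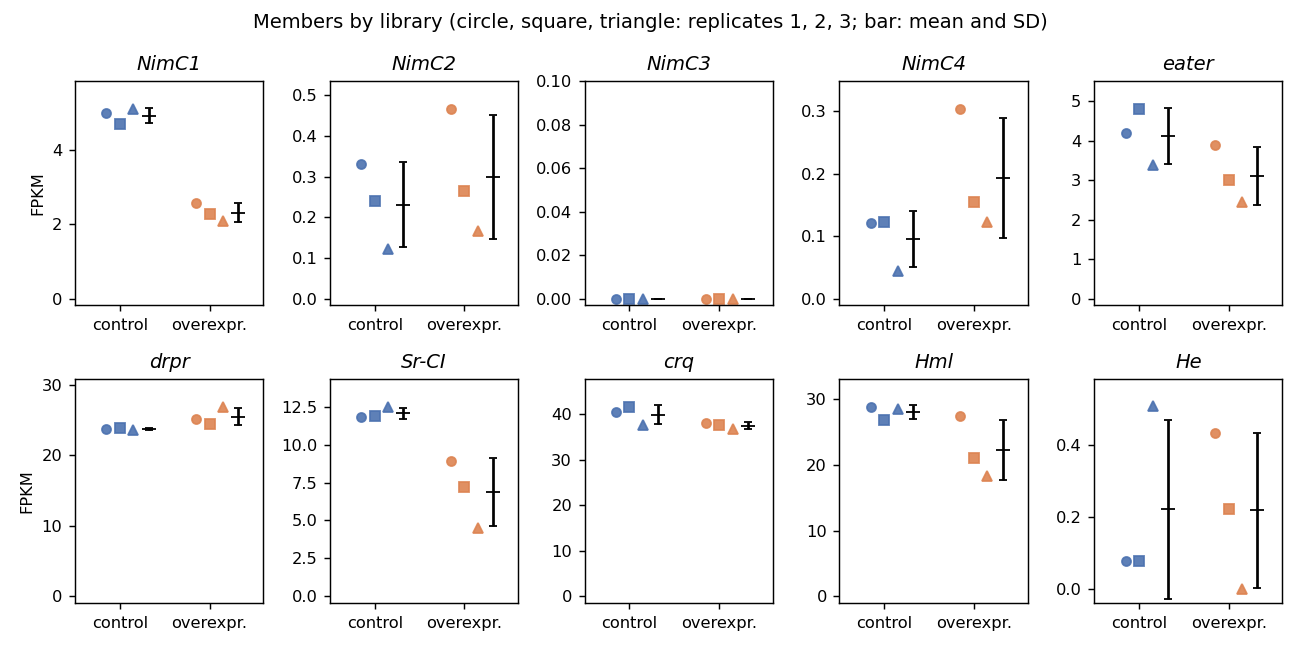
FPKM of each of the 10 genes in every library, with control libraries in blue and overexpression libraries in orange (y axis in FPKM, scaled per gene). Black bars give the mean and SD of 3 libraries. All 3 overexpression libraries lie below all 3 controls for NimC1 and Sr-CI, and NimC3 is at 0 throughout.

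The NimC genes lie in the Nimrod cluster on chromosome 2L and were mostly near the limit of counting. NimC1 (FBgn0259896, dm6 2L from 13973158 to 13976769, minus strand, 3292 exonic bp) measured 4.99, 4.71 and 5.10 FPKM in control replicates 1 to 3. In overexpression replicates 1 to 3 it measured 2.58, 2.29 and 2.09 FPKM. The lowest control library was thus well above the highest overexpression library. Its log2 fold change was -0.84 ± 0.09 (SE, n = 3 per group; 95% interval -1.05 to -0.63; limma adjusted p = 0.00172) on the scale of log2(FPKM + 1). The pseudocount compresses the change of so low a gene: the ratio of summed reads, 457 against 907, was 0.472 after scaling (95% counting interval 0.421 to 0.528). None of its exons overlaps another gene. The call held in all 14 alternatives that tested NimC1, with adjusted p up to 0.00894.

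NimC2, a neighbouring Nimrod receptor gene, had 18, 13 and 6 reads in the controls and 27, 15 and 9 reads in the overexpression libraries, or 0.122 to 0.332 and 0.167 to 0.466 FPKM. The groups overlapped, and the ratio of overexpression to control was 1.29 with a counting interval from 0.829 to 2.03. NimC4 had 3, 3 and 1 reads against 8, 4 and 3 reads, a ratio of 2.01 (0.77 to 5.82). The highest control libraries and the lowest overexpression library each had 3 reads. No change of either gene was detected, also without the filter on low values, where the log2 fold changes were 0.07 ± 0.11 (limma adjusted p = 0.783) and 0.12 ± 0.08 (adjusted p = 0.504). NimC3 had 0 reads in all 6 libraries, which allows a level of up to 0.063 FPKM in controls and 0.059 FPKM under overexpression, at 3 reads per group. Only counting error enters these limits and intervals. Of the exonic length of NimC3, 814 of 852 bp also lie in the antisense gene asRNA:CR44849, and 527 of the 2819 bp of NimC2 lie in rk on the other strand. Whether reads were counted by strand is not stated in the labels, so reads there cannot be assigned to a strand. The limits given for NimC3 hold only if reads from the stretch shared with asRNA:CR44849 could be counted for NimC3, which is not known.

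He (FBgn0028430) lies 210 bp from NimC1 and had 1, 1 and 6 reads in the controls and 6, 3 and 0 in the overexpression libraries. The values ranged from 0.0772 to 0.509 FPKM and from 0 to 0.433 FPKM, so the groups overlapped fully (ratio 1.05, counting interval 0.361 to 3.14). NimC1, whose gene is next to it on the same strand, was counted at over 100 reads in every library. He shares 78 of its 673 exonic bp with NimB5, which lies on the other strand.

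eater (FBgn0243514, 3R from 27095867 to 27099679) was about as abundant as NimC1 in the controls, at 4.19, 4.80 and 3.39 FPKM. The overexpression libraries measured 3.89, 3.01 and 2.44 FPKM. Both groups spread widely, with overexpression replicate 1 inside the control range. The log2 fold change of -0.32 ± 0.15 had a 95% interval from -0.67 to 0.03 (limma adjusted p = 0.25), which holds both no change and a fall of the size of Hml. When a library was left out, it ran from -0.45 (without overexpression replicate 1) to -0.20 (without overexpression replicate 3). It was -0.41 with a pseudocount of 0.1 and -0.17 with a pseudocount of 5, which compresses low genes more. In none of the 14 alternatives that tested eater did it pass (limma adjusted p from 0.12 to 0.545).

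drpr (FBgn0027594, 3L from 1715595 to 1731107) held almost the same level throughout the controls, at 23.8, 23.9 and 23.6 FPKM. The overexpression libraries were all slightly higher, at 25.2, 24.4 and 26.8 FPKM. The groups did not overlap, yet the difference of 0.10 ± 0.05 did not pass (95% interval -0.03 to 0.22; limma adjusted p = 0.341). It was 0.19 after rescaling to a common FPKM total (adjusted p = 0.0622) and 0.06 without overexpression replicate 3. Of 4 markers of glia, whose cells also use Draper, Eaat1 was lower (log2 fold change -0.43, adjusted p = 0.00436), while moody (-0.12), alrm (-0.02) and repo (0.11) did not pass. A short stretch of drpr exon also lies in Oseg4 on the same strand.

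Sr-CI (FBgn0014033, 2L from 4121702 to 4124153, plus strand) measured 11.8, 11.9 and 12.5 FPKM in controls. In overexpression replicates 1 to 3 it measured 8.92, 7.18 and 4.50 FPKM. The controls were tight, with a coefficient of variation of 2.95%, while that of the overexpression libraries was 32.4%. The log2 fold change was -0.77 ± 0.19 (95% interval -1.20 to -0.34; limma adjusted p = 0.0415). This call was near the threshold: it was lost without any single control library (adjusted p from 0.0946 to 0.107), without overexpression replicate 2 (0.0775), without the filter on low values (0.0771) and with FPKM rescaled to a common total (0.0557). Over the 15 alternatives it lay between 0.00315 and 0.107. It held without overexpression replicate 3, the lowest library (log2 fold change -0.54, adjusted p = 0.0277).

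crq (FBgn0015924, 2L from 448254 to 453024) was the most abundant member per length, at 40.6, 41.6 and 37.6 FPKM in controls. The overexpression libraries measured 38.1, 37.7 and 36.7 FPKM. The groups overlapped, and the log2 fold change was -0.09 ± 0.06 (95% interval -0.22 to 0.04; limma adjusted p = 0.408). With FPKM rescaled to a common total it turned to 0.01. The interval does not reach the change of NimC1. Of its 2848 exonic bp, 448 bp also lie in ex on the other strand.

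Hml (FBgn0029167, 3L from 13846054 to 13860001) has 11756 exonic bp and gave between 45.6% and 54.8% of all reads of the 10 genes in each library. It measured 28.7, 26.8 and 28.4 FPKM in controls. The overexpression libraries measured 27.3, 21.1 and 18.3 FPKM. Overexpression replicate 1 lay within the control range and the other 2 libraries below it. The log2 fold change was -0.34 ± 0.13 (95% interval -0.63 to -0.05; limma adjusted p = 0.152). The call turned on single libraries and on the tool: it passed without overexpression replicate 1 (-0.49, adjusted p = 0.0162) and with voom on recovered reads (-0.35, adjusted p = 0.0447), and was -0.21 without overexpression replicate 3 (adjusted p = 0.358). The 15 alternatives gave adjusted p-values between 0.0162 and 0.358.

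**Figure D2:**
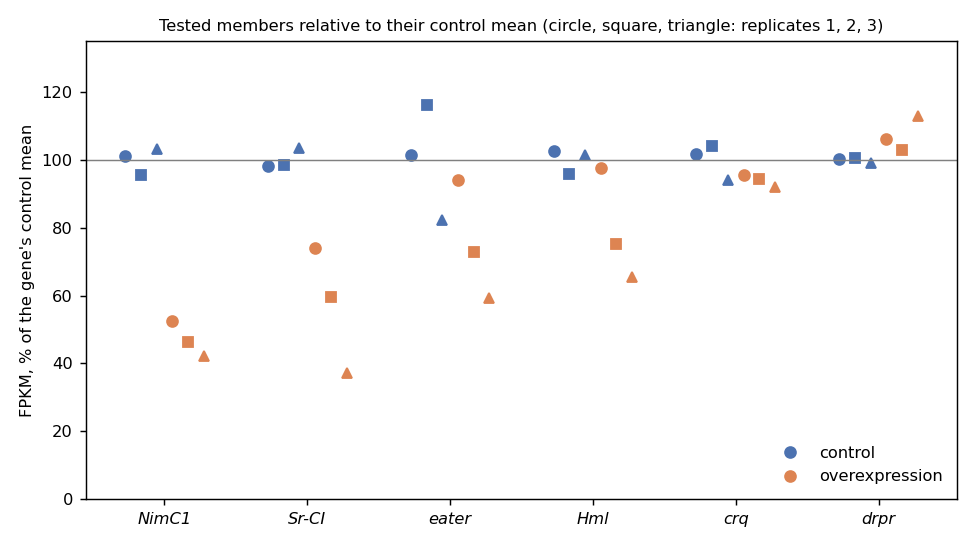
Level of each tested member in every library as a percentage of that gene's control mean (y axis from 0; blue control, orange overexpression; the marker shape gives the replicate). NimC1 drops as a tight group to about 47.0%, Sr-CI, eater and Hml scatter downward, and crq and drpr stay near 100%.

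By mean level, Hml and drpr, and NimC1 and eater, stood in the opposite order in the 2 groups, and neither pair was separated in both. In controls crq was highest, followed by Hml, drpr and Sr-CI, without overlap between neighbours in this order. NimC1 and eater came next and overlapped each other, with 4.71 to 5.10 and 3.39 to 4.80 FPKM. In overexpressing flies Hml, from 18.3 to 27.3 FPKM, overlapped drpr, from 24.4 to 26.8 FPKM, and averaged less than it (22.2 ± 4.61 against 25.5 ± 1.22 FPKM). NimC1, from 2.09 to 2.58 FPKM, still overlapped eater, from 2.44 to 3.89 FPKM, and averaged less than it (2.32 ± 0.251 against 3.11 ± 0.727 FPKM). NimC2, He and NimC4 stayed below 0.6 FPKM in every library.

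Within the overexpression group the libraries ranked alike for most members. Replicate 1 was the highest of the 3 libraries for 5 of the 6 tested members and replicate 3 the lowest for the same 5, the exception being drpr, which was highest in replicate 3. Deviations from the group means had a Pearson r of 0.96 between NimC1 and Hml, 0.92 between Sr-CI and Hml and 0.90 between NimC1 and Sr-CI, over 6 libraries that share their scaling. The other pairs of these 5 members had a lower r. For eater it was 0.70 with Sr-CI, 0.68 with Hml and 0.48 with NimC1. For crq it was 0.84 with eater, 0.27 with Sr-CI, 0.23 with Hml and -0.02 with NimC1. drpr deviated the other way, with an r of -0.79 against Sr-CI, -0.59 against NimC1, -0.51 against Hml, -0.36 against eater and -0.14 against crq. The summed level of 7 further plasmatocyte genes was likewise lowest in replicate 3, at 63.7 FPKM against 86.3 and 81.5 FPKM in replicates 1 and 2. On the first principal component of all tested genes overexpression replicate 3 was farthest from the controls, at 17.4 beside 13.4 for each of the other 2 libraries, and without it NimC1 still passed, with a log2 fold change of -0.79 (adjusted p = 0.00708).

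To compare the members with each other inside a library, each tested member was set against the mean log2(FPKM + 1) of the other 5. NimC1 stood at -1.61, -1.70 and -1.52 in the controls and at -2.24, -2.17 and -2.09 in the overexpression libraries, a shift of -0.56. Sr-CI shifted by -0.47, from between -0.29 and -0.15 to between -1.08 and -0.48. crq shifted by 0.35 and drpr by 0.57 in the other direction. In these 4 the groups did not overlap, and each exact two-sided permutation test gave p = 0.1, the smallest that 3 against 3 libraries allow (0.15 adjusted over the 6 ratios). eater (0.07, exact p = 0.8) and Hml (0.05, exact p = 0.7) overlapped between the groups. The 6 ratios are not independent, since each contains the other members. A fall of some members raises the ratios of the rest by arithmetic. The upward shift of crq is thus no rise of crq, whose own log2 fold change was -0.09 with overlapping groups. The size of the ratios also depends on the pseudocount: the shift of NimC1 was -0.74 with a pseudocount of 0.1.

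**Figure D3:**
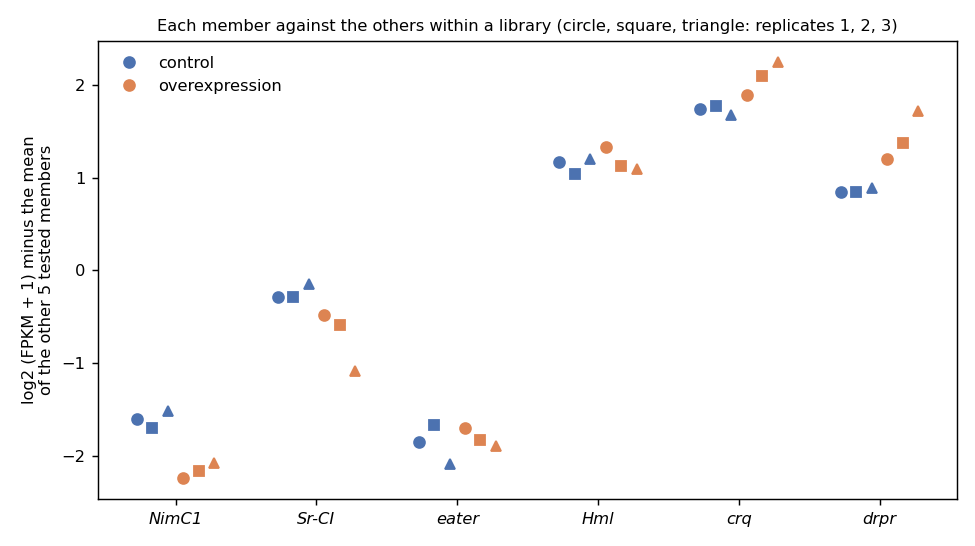
Difference between log2(FPKM + 1) of each tested member and the mean of the other 5 in the same library (blue control, orange overexpression; the marker shape gives the replicate). NimC1 and Sr-CI lie lower in the overexpression libraries, crq and drpr higher, while eater and Hml overlap.

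The genome around NimC1 was then examined. The Nimrod cluster spans 91.3 kb of 2L, from 13957539 to 14048863, and holds 21 genes of the table, 10 of them Nimrod genes, with He between NimB5 and NimC1. Of the 7 Nimrod genes tested, NimC1 included, 4 fell and 0 rose, beside 6.31% of all tested genes called lower and 2.45% called higher. The 4 Nimrod genes that fell were neighbours: NimB3, NimB4 and NimB5, secreted members of the family without a membrane anchor, and NimC1. He, between NimB5 and NimC1, was too low to test. NimB3 fell from 86.5 ± 5.80 to 61.5 ± 6.50 FPKM (SD, n = 3; limma adjusted p = 0.0112), NimB4 from 8.58 ± 0.738 to 5.35 ± 1.13 FPKM (adjusted p = 0.0303) and NimB5 from 13.0 ± 1.50 to 8.23 ± 1.28 FPKM (adjusted p = 0.0196). At the other end of the run, NimB2, at 197.5 ± 9.08 and 176.1 ± 19.2 FPKM, did not pass (log2 fold change -0.17, adjusted p = 0.26), nor did NimB1 (-0.05) or NimA (-0.06). NimB4 lost its call without any single control library (adjusted p from 0.0615 to 0.0941) or without the filter on low values (0.0601), and NimB5 without control replicate 1 (0.0604).

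Of the 4 tested genes in the span that are no Nimrod genes, 1 was lower. This was bgm (bubblegum), an acyl-CoA synthetase gene, which fell from 49.5 ± 2.17 to 28.2 ± 3.05 FPKM (adjusted p = 0.00134) and lies next to NimC3, at 0 reads. Cyp28a5, directly beside NimC1, measured 36.4 ± 2.03 and 33.5 ± 3.33 FPKM (log2 fold change -0.12, adjusted p = 0.433). The span and these neighbours were chosen with the values of NimC1 known.

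**Figure D4:**
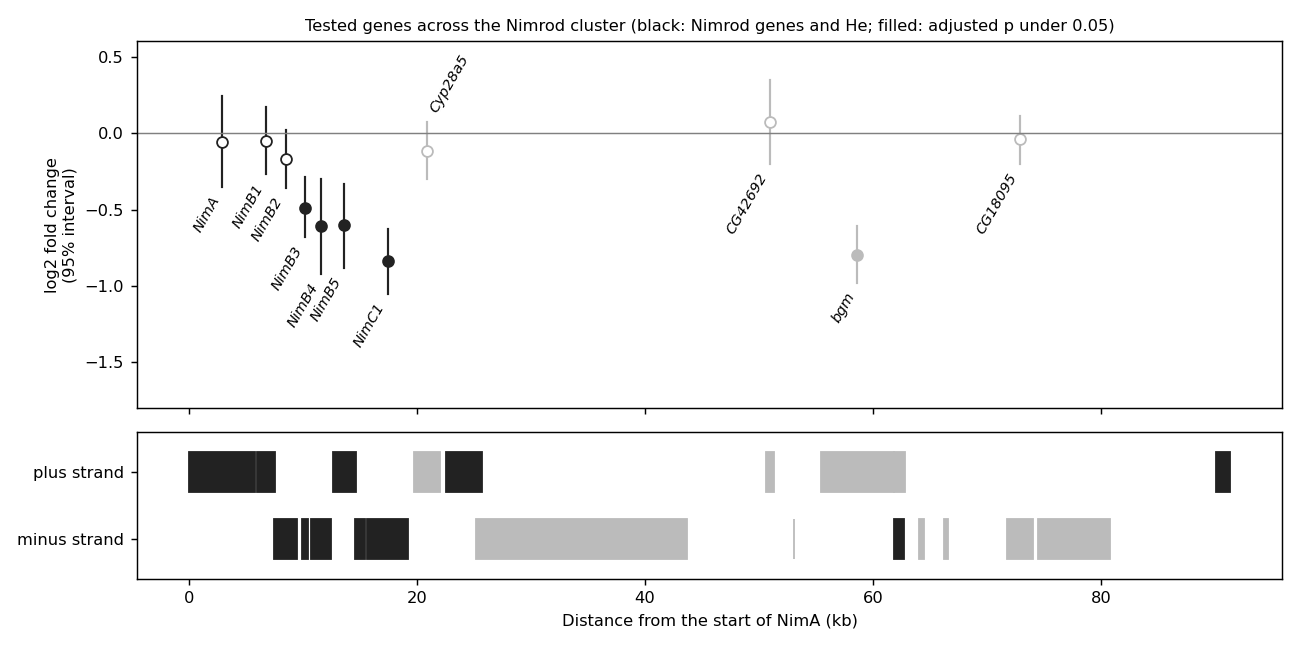
Upper panel: log2 fold change with its 95% interval for the 11 tested genes of the Nimrod cluster, against distance from the start of NimA in kb. Lower panel: gene extents by strand, Nimrod genes and He in black and other genes in grey. The filled points of NimB3, NimB4, NimB5 and NimC1 lie side by side, between -0.49 and -0.84.

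Other receptors of these families were mostly not called. Of the class C scavenger receptor genes other than Sr-CI, only Sr-CIV was tested. It measured 2.21 ± 0.471 and 1.88 ± 0.222 FPKM and did not pass (adjusted p = 0.559). Sr-CII and Sr-CIII were below 1 FPKM. The list of other Nimrod and class C genes had 7 tested genes, of which 3, the NimB genes above, were lower. Their median log2 fold change over all 7 was -0.17, beside 0.00 over all tested genes. Of 7 further CD36 relatives, 1 was lower and 0 higher (median -0.29): Snmp2 measured 9.61 ± 0.423 and 7.34 ± 0.872 FPKM (adjusted p = 0.0483), a call lost in 11 of 15 alternatives (adjusted p from 0.0132 to 0.118). The groups did not overlap either for ninaD, at 11.2 ± 2.94 and 6.74 ± 0.395 FPKM (log2 fold change -0.63, adjusted p = 0.0552), santa-maria (-0.32, adjusted p = 0.0678) and dsb (-0.29, adjusted p = 0.0617), which did not pass. They overlapped for emp (-0.03), Snmp1 (-0.02) and pes (0.10). Of all tested genes, 28.4% had groups that did not overlap.

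Genes for uptake that act after the receptors or beside them did not pass the test. Of 16 tested genes for uptake, among them the Draper adaptor ced-6, the kinases Shark and Src42A, integrins and the actin regulators Rac1, Rac2, Cdc42, WASp and SCAR, 0 were higher and 0 lower by limma (median -0.01). ced-6 measured 73.9 ± 3.60 and 65.2 ± 2.40 FPKM, without overlap between the groups (log2 fold change -0.18 ± 0.06, adjusted p = 0.0965). prtp, which encodes Pretaporter, a ligand of Draper, measured 51.0 ± 2.15 and 46.5 ± 1.37 FPKM (adjusted p = 0.196). The groups did not overlap either for prtp and the integrin gene mys, which was lower (log2 fold change -0.26, limma adjusted p = 0.0543). In the other direction they did not overlap for WASp (0.16, adjusted p = 0.182) and PGRP-LC (0.25, adjusted p = 0.116). For this list, scb had no identifier in the table that matches a current symbol.

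Some other plasmatocyte genes fell along with NimC1 and Sr-CI. Of 7 such genes 4 were lower and 0 higher, beside 6.31% and 2.45% of all tested genes. The list had a median log2 fold change of -0.80. Glt (Glutactin) fell from 65.5 ± 3.69 to 24.7 ± 5.05 FPKM (log2 fold change -1.39 ± 0.14, limma adjusted p = 0.00122). The collagen IV genes Col4a1 (-1.07 ± 0.11) and vkg (-0.98 ± 0.10) each had an adjusted p of 0.00172, and Ppn (Papilin), named after its values were seen, had a log2 fold change of -0.80 ± 0.12 (adjusted p = 0.00648). These 4 encode proteins of the extracellular matrix, and the collagens are made in the fat body as well as in hemocytes. Pxn (Peroxidasin), also named after its values were seen, measured 5.46 ± 0.397 and 4.47 ± 0.169 FPKM (adjusted p = 0.108). The transcription factor genes srp (Serpent) and ush, also among the 7, did not pass. srp measured 8.16 ± 0.506 and 8.19 ± 0.933 FPKM (adjusted p = 0.994). ush, named after its values were seen, had a log2 fold change of -0.06 (adjusted p = 0.815). Another blood cell factor, zfh1, measured 3.60 ± 0.136 and 4.24 ± 0.378 FPKM (adjusted p = 0.243). Of 6 tested blood cell transcription factors 0 passed.

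**Figure D5:**
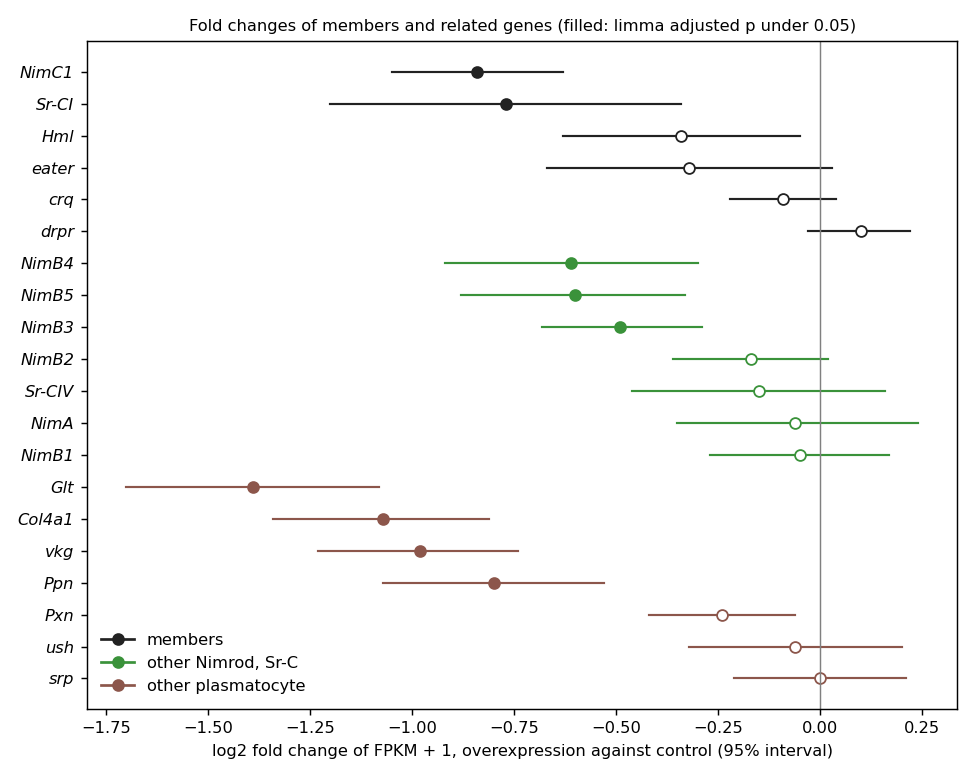
Log2 fold change of FPKM + 1 with its 95% interval for tested members (black), other Nimrod and class C scavenger receptor genes (green) and other plasmatocyte genes (brown). Filled points passed the limma threshold. The 4 filled plasmatocyte genes lie between -1.39 and -0.80, beside NimC1 at -0.84.

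Markers of the other hemocyte classes did not pass. Among crystal cell markers, the prophenoloxidase gene PPO2 measured 5.42 ± 0.590 and 6.61 ± 1.81 FPKM (adjusted p = 0.454), and the transcription factor gene lz 0.741 ± 0.0724 and 1.36 ± 0.358 FPKM (adjusted p = 0.124). lz passed with voom on recovered reads (log2 fold change 0.83, adjusted p = 0.0313). Of the lamellocyte markers, PPO3 measured 1.55 ± 0.381 and 1.61 ± 0.481 FPKM (adjusted p = 0.948), while atilla, at 157.3 ± 2.03 and 140.7 ± 8.85 FPKM, did not overlap between the groups and did not pass (adjusted p = 0.131). ItgaPS4, also on this list, averaged 0.258 FPKM over all libraries and was too low to test. Which cells of the fly gave the atilla reads was not tested. Of 5 thioester proteins, relatives of complement factors of which some coat microbes for uptake, 0 passed, and Tep4 measured 101 ± 4.77 and 110.1 ± 13.1 FPKM, while Tep2 averaged 94.0 and 97.7 FPKM. Of 3 clotting genes 0 passed, with fon (fondue) at 158.8 ± 8.43 and 133.2 ± 14.6 FPKM (adjusted p = 0.106) and Idgf3 at 81.5 ± 2.73 and 93.9 ± 6.35 FPKM (adjusted p = 0.0935).

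Of 85 tested genes on these lists that are no members, Apoltp, Tg and fon followed the mean standardized profile of the members most closely, with a Pearson r of 0.968, 0.959 and 0.957 over the 6 libraries. Apoltp encodes a lipid transfer particle of the fat body, Tg a transglutaminase and fon a clot protein. This is a description over libraries that share their groups and their scaling.

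Markers of other tissues moved in the same comparison. Muscle markers were lower in 4 of 6 tested genes (median -0.47), with Mlc2 falling from 710 ± 91.2 to 437.6 ± 35.9 FPKM (adjusted p = 0.00646), and the list summed to 1482 to 1949 FPKM in controls and to 1150 to 1258 FPKM under overexpression. Among them Mlc1 (-0.38, adjusted p = 0.0404) lost its call in 9 of 15 alternatives and Act88F (-0.69, adjusted p = 0.0432) in 7. Of 3 tested fat body markers, apolpp, the lipophorin precursor gene, fell from 106.4 ± 20.5 to 31.7 ± 11.1 FPKM (adjusted p = 0.00478). The list summed to 579.5 to 630.7 and 485.9 to 515.6 FPKM. Most of this sum was Obp44a, at 463.2 to 473.4 and 425.4 to 465.6 FPKM (limma adjusted p = 0.588). Apoltp did not pass either (log2 fold change -0.36, adjusted p = 0.055), and Lsp2 and Fbp1 averaged under 1 FPKM. Amnionless, a nephrocyte gene, fell from 13.4 ± 0.670 to 7.56 ± 1.41 FPKM (adjusted p = 0.00651), 1 of 4 tested markers of nephrocytes and heart. Among glial markers 1 of 4 was lower: Eaat1, a glutamate transporter gene, fell from 68.8 ± 0.696 to 50.9 ± 3.31 FPKM (adjusted p = 0.00436). Neuron markers (0 of 4) did not pass, with nSyb at 44.2 and 45.5 FPKM and Syt1 at 17.2 and 16.4 FPKM on average. Testis and accessory gland markers (0 of 7) did not pass, with Mst87F averaging 603.3 and 567.5 FPKM and loopin-1 556.7 and 581.4 FPKM. Of 5 gut markers betaTry, a trypsin gene, was higher (log2 fold change 0.57 ± 0.13, adjusted p = 0.0321, lost in 6 of 15 alternatives) and 0 were lower. The gut list summed to 5292 to 6066 FPKM in controls and to 6775 to 6999 FPKM under overexpression. alphaTry (0.25, adjusted p = 0.0505) and Jon65Aiii (0.42, adjusted p = 0.0621) averaged higher and did not pass. Jon99Ci (-0.39, adjusted p = 0.215) and Amy-p (-0.14, adjusted p = 0.659) averaged lower and did not pass. The part of these tissues in the falls of NimC1 and Sr-CI was not tested.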

How the data were processed

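Per the labels' protocols, polyadenylated RNA was sequenced in paired ends, and the authors aligned reads with HISAT2 2.0.5 and counted them with featureCounts 1.5.0-p3 on dm6. They deposited FPKM, 1 column per library. How counts became FPKM, the annotation release, and strand and multi-mapping settings are not stated in the labels or the table.

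Multiplied by exonic length in the Ensembl annotation of the same assembly, FPKM gave whole reads, within 0.01 reads in all 6 libraries, for 97.6% of genes above 0 with a known length, so depth could be recovered and 0 means 0 reads. Gene identifiers matched a current symbol for 17252 genes, and 306 did not, so PPO1, FASN1, wupA and scb carry no value here. Between replicates, chi-square per degree of freedom was 6.58 to 9.74 over genes averaging 50 reads or more, so all libraries were kept as distinct.

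Genes with a mean of at least 1 FPKM were fitted with limma 3.58.1 in R 4.3.3 (trend, two-sided, Benjamini-Hochberg over 12251 genes, threshold 0.05) on log2(FPKM + 1), which understates changes of low genes. The steps were tested on simulated data. Named were the 10 genes, CR46018, for each list up to 3 genes past the threshold or else the 2 most abundant, and the 3 most like the members. Other genes were named after their values were seen. Members and lists were chosen with earlier results of these data known. Alternatives were pseudocounts of 0.1 and 5, no filter, a filter of 5 FPKM, 3 rescalings, voom on recovered reads scaled as deposited, a replicate block and leaving out each library.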

Additional observations from a re-analysis of the deposited data

How the results depend on the processing

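NimC1 kept its direction and its call in all 14 alternatives that tested it. The number of members called lower, 2, was 1 without the filter on low values, with a filter of 5 FPKM (which removes NimC1 itself) and with FPKM rescaled to a common total, 3 with voom on recovered reads, and 1 to 3 when a library was left out. The ratio of NimC1 to the other members within a library moved from -0.56 to -0.74 with a pseudocount of 0.1. With rescaling to a common total, 826 genes were higher and 484 lower over the whole table, against 300 and 773, with 63.1% of the calls higher against 28%, and leaving out a library gave 137 to 283 higher and 427 to 629 lower. That rescaling shifted the median of all genes by 0.085, under which crq turned to 0.01, Mst87F to 0.01, Syt1 to 0.02 and Tg to 0.02.

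Of the other listed genes, 1 was called higher, with 0 without the filter, 3 with a filter of 5 FPKM, 2 with median-of-ratios rescaling or a pseudocount of 5, 4 with quantile normalization, 7 with rescaling to a common total, 6 with voom and 0 to 2 without a library. Called lower were 15, with 25 by voom and 11 to 15 without a library. Other values that changed sign belonged to genes that did not pass: Mst87F was 0.07 with quantile normalization, and over the fits that left out a library srp ran from -0.07 to 0.08, PPO3 from -0.08 to 0.19, Tep2 from -0.07 to 0.16 and nSyb from -0.01 to 0.10. Causes of these changes were not tested.

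Same-numbered libraries did not deviate together (r of 0.046, -0.076 and 0.026 for replicates 1 to 3), so the numbers were not taken to pair libraries. With the replicate number as a block, 219 genes were higher and 616 lower, and 2 members were lower. Depth limits NimC2, NimC3, NimC4 and He: the counting intervals of the ratio, where one exists, hold both no change and a ratio of 2.01.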
